A study of Mus musculus with 10 samples.

Results

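Broad H3K4me3 domains in Npm1-knockout cardiac macrophages were taken as the peaks of the knockout H3K4me3 list that lay on chromosomes 1 to 19 and were 2000 bp or wider. By this rule 1733 of the 52063 autosomal knockout peaks were domains, or 3.33%, out of 410642 autosomal peaks in the 6 lists used here. The widest domain measured 4146 bp, the median was 2254 bp and the interquartile range ran from 2109 to 2476 bp. Most domains therefore lay close to the limit, and 86 reached 3000 bp. Just inside it were peaks of 2000 bp at Slc30a1, Entr1/Pmpca, Ccdc148/Pkp4 and Plekho1 and at the tRNA gene n-TIaat6. Just outside it were peaks of 1999 bp at Acot13/Tdp2, Ssb and Stk35 and at a site with no gene, and one of 1998 bp at Trappc10. The knockout width chose the domains, so widths, and the knockout fold and q that come with them, are given as description only.

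The study mapped chromatin with CUT&Tag, in which an antibody directs a transposase to cut and tag the DNA around its target. H3K4me3 was mapped in cardiac macrophages of wild-type (WT) mice and of mice labelled Npm1-cKO or NPM1 knockout, all at day 3 after myocardial infarction. NPM1 was mapped in WT cells only, namely cardiac macrophages at day 3 after a sham operation or after infarction, and bone marrow-derived macrophages (BMDM) grown with M-CSF at 50 ng/ml for 7 days and then left untreated or given interleukin-4 (IL-4) at 20 ng/ml for 12 hours. Each of these 6 groups was 1 library, so no value below has a replicate error and no p-value is given, and 4 further libraries of IL-4-treated BMDM were not analysed here. The sources used here name neither the Cre line that drives the conditional knockout nor how complete the deletion was, nor the age, sex or pooling of the mice.

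H3K4me3 is laid down by the SET1 and MLL (KMT2) methyltransferase complexes, which are drawn to CpG-rich DNA in part by CXXC-domain proteins, and it is removed by demethylases such as the KDM5 family. At most active promoters the mark sits on the few nucleosomes around the transcription start. At a minority it spreads further into the gene, and such broad domains are known for their presence at genes of cell identity and at tumour suppressor genes. NPM1, or nucleophosmin, is an abundant histone chaperone of the nucleolus that also moves through the nucleoplasm.

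Promoter sequences of 8 genes are shown first because the starts inside the domains were mostly rich in CpG dinucleotides and a small group was not. Each is the 250 bases before an annotated start that lies in a domain, 5′ to 3′ on the strand of the gene, from RefSeq on GRCm38.p6, with every CpG in capitals. The first 4 belong to some of the widest domains. Mafk (chr5:139791286-139791535, plus strand) encodes a small Maf transcription factor, Foxo3 (chr10:42276696-42276945, minus strand) a forkhead factor of the stress response, Dusp6 (chr10:99262981-99263230, plus strand) a phosphatase of ERK, and Cebpa (chr7:35119043-35119292, plus strand) a factor that specifies myeloid cells.
Mafk: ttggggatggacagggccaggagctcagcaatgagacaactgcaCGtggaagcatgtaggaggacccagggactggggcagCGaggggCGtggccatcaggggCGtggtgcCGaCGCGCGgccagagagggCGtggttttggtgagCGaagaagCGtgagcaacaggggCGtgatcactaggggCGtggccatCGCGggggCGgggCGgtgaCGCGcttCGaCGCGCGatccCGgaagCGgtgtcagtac
Foxo3: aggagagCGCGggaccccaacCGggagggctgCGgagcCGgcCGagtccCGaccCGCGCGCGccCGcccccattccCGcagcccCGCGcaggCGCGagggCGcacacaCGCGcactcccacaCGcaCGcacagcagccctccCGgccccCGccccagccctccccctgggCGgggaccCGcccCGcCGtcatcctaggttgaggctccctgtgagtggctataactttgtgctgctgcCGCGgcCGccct
Dusp6: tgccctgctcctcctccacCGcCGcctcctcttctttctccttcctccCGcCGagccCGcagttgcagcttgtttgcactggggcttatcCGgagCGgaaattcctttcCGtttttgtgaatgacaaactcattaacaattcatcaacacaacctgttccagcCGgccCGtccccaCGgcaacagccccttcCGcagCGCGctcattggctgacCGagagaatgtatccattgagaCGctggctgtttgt
Cebpa: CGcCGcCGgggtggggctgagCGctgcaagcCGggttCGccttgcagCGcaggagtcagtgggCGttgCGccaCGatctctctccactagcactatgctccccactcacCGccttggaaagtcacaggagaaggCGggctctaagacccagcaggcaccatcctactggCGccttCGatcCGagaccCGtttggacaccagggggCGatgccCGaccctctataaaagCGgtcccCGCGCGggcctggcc
The other 4 are CpG-poor starts. Casp1 (chr9:5298267-5298516, plus strand) encodes the inflammasome protease caspase-1, Cd68 (chr11:69666171-69666420, minus strand) a lysosomal protein of macrophages, Trem2 (chr17:48346151-48346400, plus strand) a lipid-sensing receptor of macrophages and microglia, and Ifitm3 (chr7:141010745-141010994, minus strand) an interferon-induced membrane protein.
Casp1: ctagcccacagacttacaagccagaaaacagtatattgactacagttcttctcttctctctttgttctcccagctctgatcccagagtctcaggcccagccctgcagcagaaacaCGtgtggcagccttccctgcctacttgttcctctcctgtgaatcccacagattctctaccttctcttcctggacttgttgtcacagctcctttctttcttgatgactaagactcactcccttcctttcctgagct
Cd68: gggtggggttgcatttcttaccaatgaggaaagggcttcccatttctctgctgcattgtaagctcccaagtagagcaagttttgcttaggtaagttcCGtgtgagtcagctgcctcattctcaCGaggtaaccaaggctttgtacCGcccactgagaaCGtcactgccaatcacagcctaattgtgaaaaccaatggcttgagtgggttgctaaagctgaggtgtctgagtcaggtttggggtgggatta
Trem2: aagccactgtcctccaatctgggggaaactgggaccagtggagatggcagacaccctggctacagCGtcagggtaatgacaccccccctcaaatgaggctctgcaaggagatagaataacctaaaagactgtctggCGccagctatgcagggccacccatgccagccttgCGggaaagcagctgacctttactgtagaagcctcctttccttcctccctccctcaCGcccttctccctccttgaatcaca
Ifitm3: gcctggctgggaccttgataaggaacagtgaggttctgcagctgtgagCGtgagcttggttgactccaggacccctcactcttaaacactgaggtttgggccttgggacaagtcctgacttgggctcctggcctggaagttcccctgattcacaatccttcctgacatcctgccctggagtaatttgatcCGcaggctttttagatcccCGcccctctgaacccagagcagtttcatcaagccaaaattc
The 250 bases held 25 CpG at Mafk, 31 at Foxo3, 16 at Dusp6 and 22 at Cebpa. They held 1 at Casp1, 4 at Cd68, 4 at Trem2 and 3 at Ifitm3.

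Library depth and enrichment differed among the lists and touch every comparison below. Total reads are not given, but the fold and p-value of a peak fix the background pileup used at its summit, in reads per position. In each list 1 value was taken as the background of the library, and 27.5% (knockout H3K4me3) to 51.7% (NPM1 sham) of summits were at it. This background was 2.49 for knockout and 2.92 for WT H3K4me3, and for NPM1 it was 1.29 in sham, 3.03 in infarct, 1.31 in untreated and 4.18 in IL-4. The knockout library thus had the lower H3K4me3 background, yet its peaks covered 35.4 Mb of the autosomes against 27.9 Mb in WT, and the WT list held 43 peaks of 2000 bp or more among 72385 (0.0594%). The median −log10 q was 83.9 over the domains and 11.6 over the best WT peak in each, where q is the false discovery rate that the peak caller gave. The rule chose by knockout width, which favours the knockout q, so these medians do not compare the 2 libraries. Because background and covered bases differed, peaks of 2 lists are not a measure of change at a gene. How far enrichment sets the width of a knockout peak was not tested.

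Most domains lay over several shorter WT peaks. The median domain had 57.7% of its bases under WT peaks (interquartile range 44.4% to 69.2%), which is 1324 bp covered and 980 bp not covered at the medians. Of the 1733 domains, 439 (25.3%) overlapped 1 WT peak, 851 (49.1%) overlapped 2, 367 (21.2%) overlapped 3 and 67 (3.87%) overlapped 4 or more, so 74.1% were broken into separate peaks in WT. A WT peak covered the knockout summit, the position of highest pileup, in 1676 domains (96.7%). In 1087 domains (62.7%) the widest WT peak was under 1000 bp, and in 31 (1.79%) it was 2000 bp or more. Coverage was 34.0% and 35.8% in the outermost 10% at the left and right edges of the domains and 65.9% in the middle.

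The share of domains with 50% or more of their bases under WT peaks was 65.2%, or 1130 of 1733 (95% Wilson interval 62.9% to 67.4%, which covers counting over domains only). Over all autosomal knockout peaks it was 33.0%. That difference was mostly one between short and long peaks, because knockout peaks of 1000 to under 2000 bp, 10732 in number, had a median coverage of 57.1% and 60.0% of them were covered over 50% or more. Within the domains the share went down with width. It was 68.2% for the 1329 domains under 2500 bp, 58.5% for the 318 from 2500 to under 3000 bp and 44.2% for the 86 of 3000 bp or more. The widest domains thus had the largest parts without a WT peak, as the plot of width against WT-covered bases shows.

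**Figure D1:**
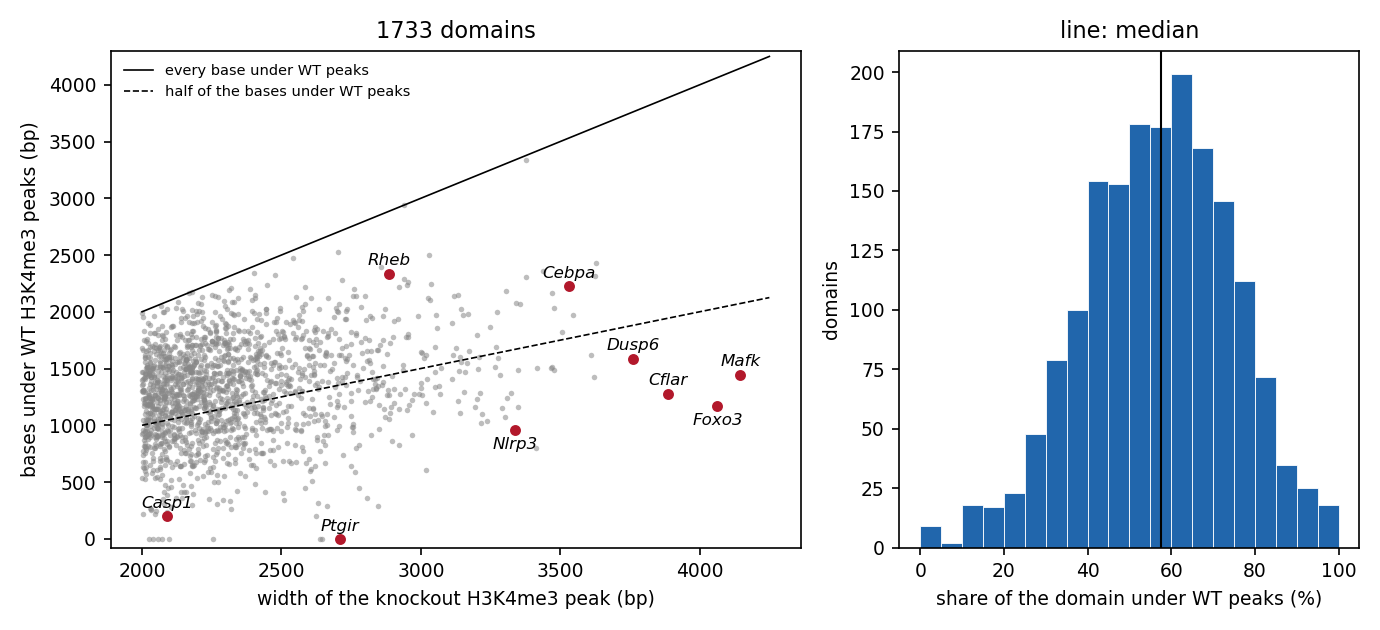
Left, each point is one of the 1733 domains, with its width in bp on the x axis and the bases of it under WT H3K4me3 peaks on the y axis. Named domains are in red. Right, the number of domains by the share of their bases under WT peaks, with the median of 57.7% as a line. Mafk and Foxo3 lie at the far right and under the dashed line, while Cebpa lies above it.

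Choosing by the knockout list favours knockout coverage, so the reverse choice was read too. The 43 WT peaks of 2000 bp or more had a median of 100% of their bases under knockout peaks, 41 were covered over 50% or more and 31 overlapped a domain. The 1733 widest WT peaks, those of 1165 bp or more, were covered in full by knockout peaks in 73.7% of cases. Only 447 of them overlapped a domain, which is 25.8% of either set. The 2 lists thus mostly differed in which peaks were widest. The places were largely shared, since 99.5% of domains overlapped some WT peak and 96.7% had one at the knockout summit.

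Mafk carried the widest, 4146 bp (chr5:139791257-139795402), with a knockout fold of 3.50 and 4 WT peaks over 1439 bp, or 34.7%. Its WT peaks measured 688, 282, 232 and 354 bp, the first of them over the start. Foxo3 followed with 4064 bp (chr10:42274397-42278460, knockout fold 4.71), of which 2 WT peaks covered 1169 bp, or 28.8%. Both WT peaks lay around and upstream of the Foxo3 start, and no WT peak was called over the rest of its downstream part.

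The third, 3886 bp, lay inside Cflar, the gene of the caspase-8 inhibitor c-FLIP, and 32.8% of it was under WT peaks. Dusp6 had 3761 bp with 42.0% covered. Cdk6, a G1 cyclin-dependent kinase, had 3627 bp with 67.1% covered, and Trib1, a pseudokinase that controls C/EBP-alpha levels, had 3623 bp with 63.9%. Plec, the gene of the cytoskeletal linker plectin, had 3621 bp inside it with 39.3% covered. Kdm6b, which encodes the H3K27 demethylase JMJD3, had 3611 bp inside it with 44.9% covered by 5 WT peaks. Parp14, an interferon-induced ADP-ribosyltransferase, had 3544 bp with 55.7% covered, and Cebpa had 3532 bp with 63.0% covered by 3 WT peaks. The zinc-finger gene Hivep2 (3506 bp, 51.9%) and Rab7b, a late endosomal GTPase (3479 bp, 42.8%), completed the 12 widest. Coverage in the 12 thus ran from 28.8% at Foxo3 to 67.1% at Cdk6, with 7 of them under 50%.

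In the WT list 9 domains had no peak at all. They were at Ptgir, the prostacyclin receptor gene (2710 bp), inside Apobec1, which encodes an RNA-editing cytidine deaminase (2637 bp), at Sp9, a zinc-finger factor of the developing forebrain (2255 bp), at Ccdc97 (2096 bp), at Wwtr1, which encodes the Hippo effector TAZ (2057 bp), at Mdga1, a neuronal adhesion gene (2024 bp), and at 3 sites with no gene. Their knockout −log10 q ran from 6.90 to 49.6, all below the lower quartile of the domains, 62.8. Among the domains with the next lowest shares were Rims2, a presynaptic scaffold gene, with 7.62% covered, Casp1 with 9.57% (200 of 2090 bp), Fgr, a Src-family kinase gene of myeloid cells, with 10.2%, and Epha4, an ephrin receptor gene, with 10.8%. Low WT coverage thus occurred at myeloid genes (Casp1, Fgr) and at genes known from neurons (Sp9, Mdga1, Rims2) alike.

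A few domains were called strongly in every NPM1 list. In 8 of them a peak with −log10 q of 5 or more lay in each of the 4 NPM1 lists, and 1 of the 8 was at a protein-coding gene end. A site with no gene (chr13:74528483-74530882) was 97.6% covered in WT and had a −log10 q of 821 in sham, 679 in infarct, 586 in untreated and 1189 in IL-4. The predicted noncoding genes Gm10222/Gm10925 (chr1:24613205-24616143) and the ribosomal RNA-related gene Rn18s-rs5 (chr17:39843035-39846412) were 100% and 98.8% covered in WT. At the chr13 site the fold was 9.12 in knockout and 8.26 in WT H3K4me3, and 8.30 to 9.83 over the NPM1 lists. In the same order it was 3.85, 3.86 and 3.34 to 3.76 at Gm10222/Gm10925, and 3.30, 3.11 and 2.43 to 3.27 at Rn18s-rs5. Strong signal at these places was thus not particular to NPM1. Most of these 8 thus lay outside protein-coding gene ends, unlike the other domains.

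The map of 8 domains shows how WT and NPM1 peaks lay within them. At Jun, an AP-1 subunit gene, the domain of 3376 bp held 4 WT peaks and an infarct NPM1 peak with −log10 q of 43.3 whose summit lay next to the start. At Irf8, a factor of monocyte and macrophage development, the domain of 2278 bp held WT peaks of 333 and 532 bp downstream of the start and NPM1 peaks over it. At Nfkbia, which encodes the NF-kappaB inhibitor IkappaB-alpha, 4 WT peaks of 200 to 568 bp lay within 2808 bp. At Socs3, a feedback inhibitor of cytokine signalling, 3 WT peaks lay within 2552 bp and 39.7% was covered.

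**Figure D2:**
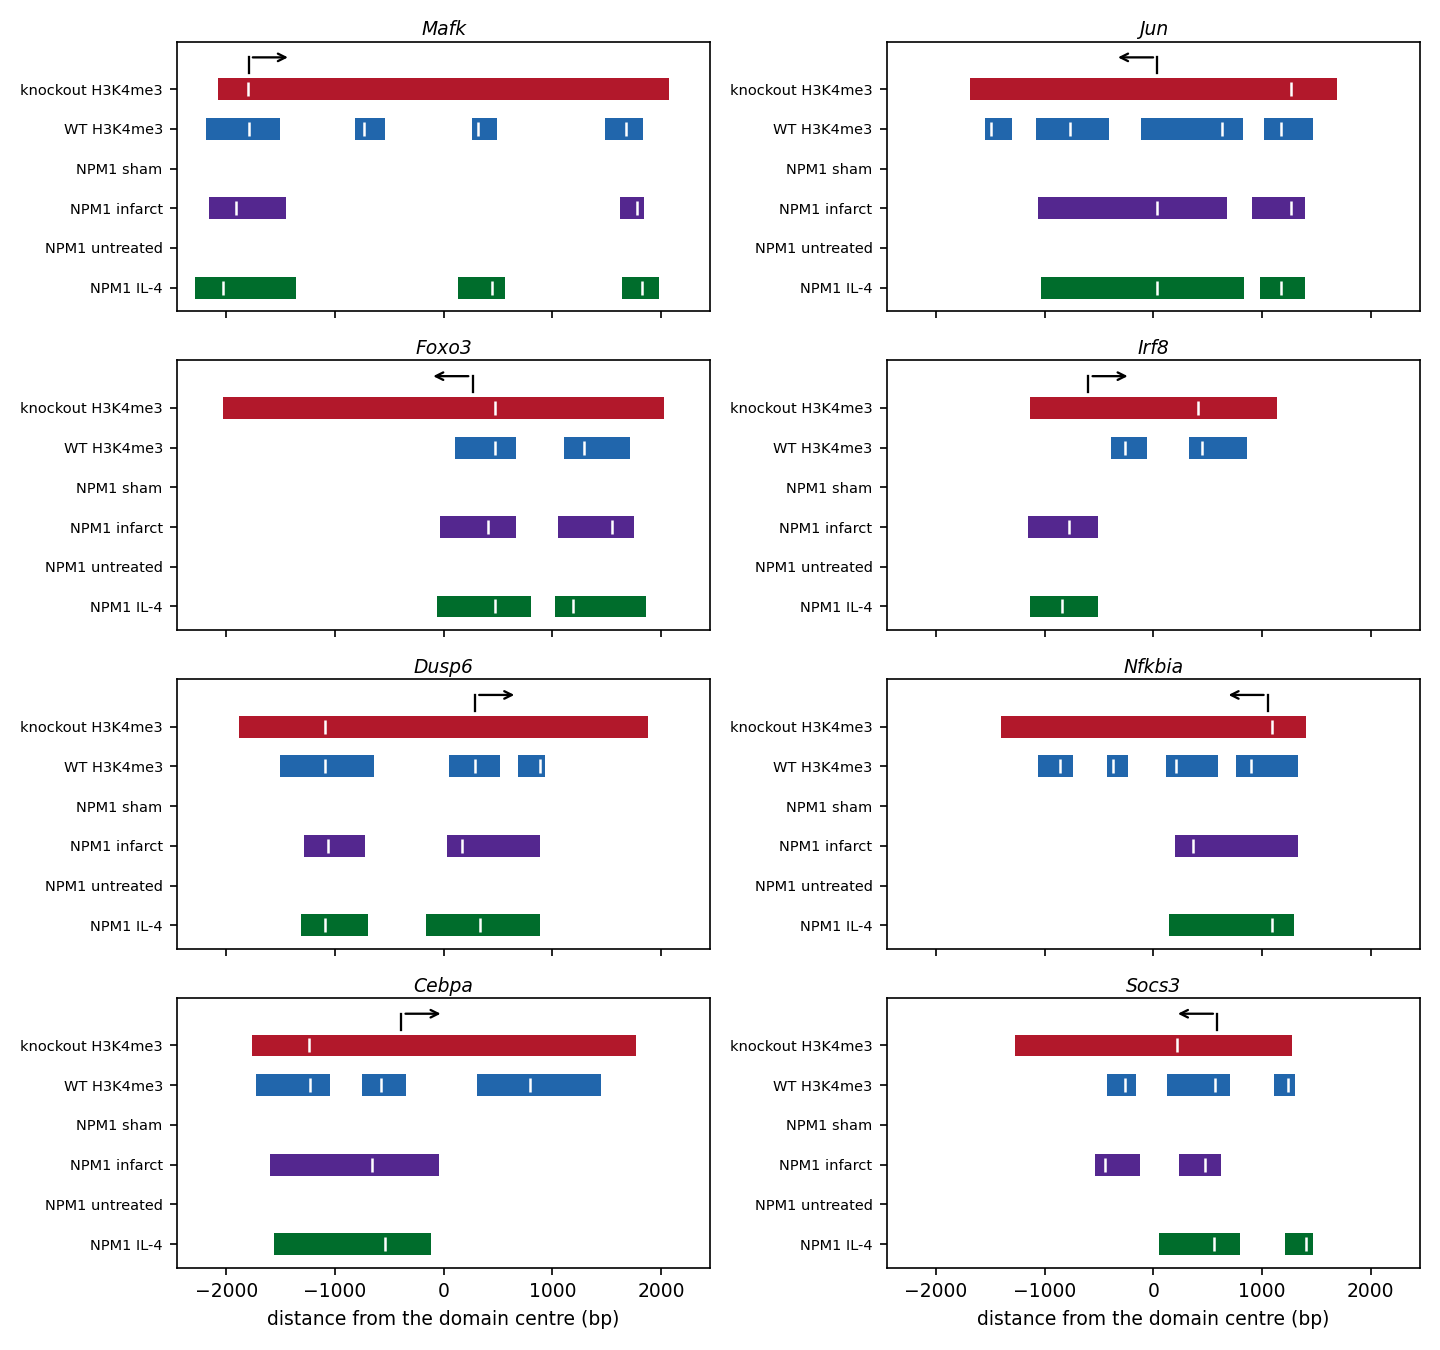
Peaks of the 6 lists in 8 domains, chosen from the widest and from the gene lists, drawn to scale along the x axis as the distance in bp from the centre of the domain. Bars are peaks, white ticks are their summits, and arrows mark annotated starts and the direction of transcription. Each red knockout bar runs unbroken across 2 to 4 shorter blue WT bars, and neither the sham nor the untreated list had a peak in any of the 8.

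Domains extended along the gene. Exactly 1 annotated protein-coding start lay inside 923 domains, and there the domain reached a median of 737 bp upstream and 1508 bp downstream of it. The downstream part was the longer in 754 (81.7%), close to the 83.9% in knockout peaks of 1000 to under 2000 bp. WT peaks covered 62.3% of the upstream and 54.1% of the downstream bases. By position, knockout coverage stayed at 90.8% or more from the start to 1000 bp downstream, while WT coverage was 88.2% in the first 100 bp and 42.5% between 900 and 1000 bp. WT coverage thus went down with distance from the start over a stretch that knockout peaks covered almost in full. Starts on opposite strands lay together in 184 of the 1286 domains with a start inside (14.3%), against 8.93% of the narrower peaks with one.

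**Figure D3:**
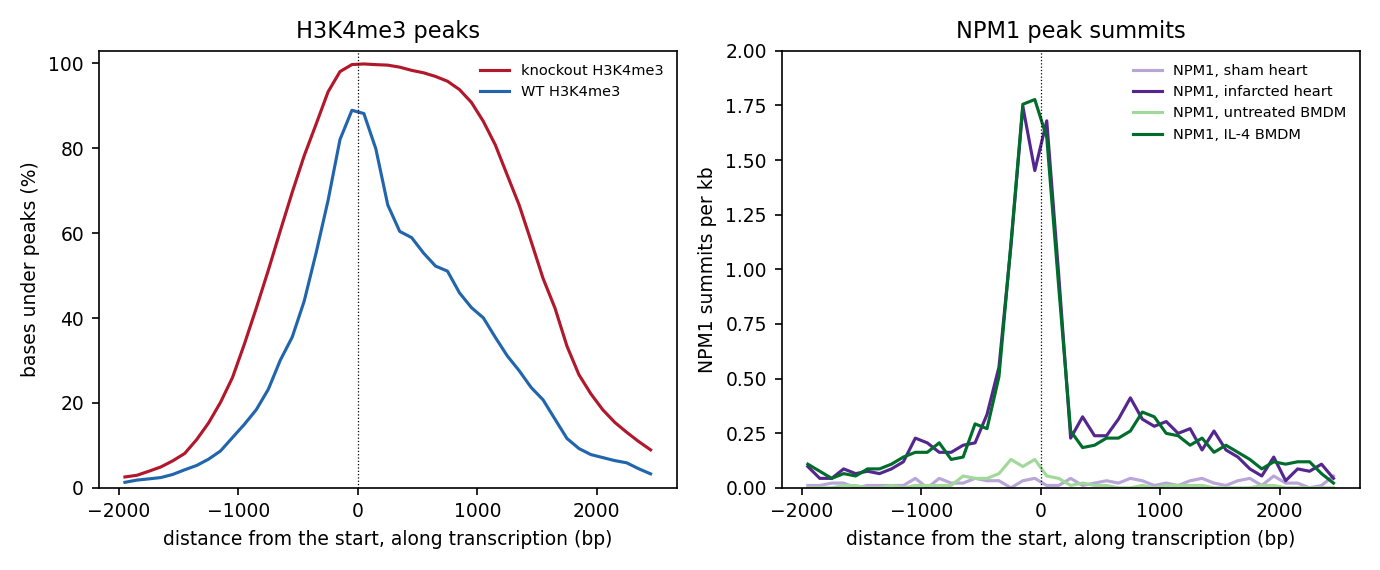
Profiles around the start of the 923 domains with a single annotated start, in 100 bp bins along the direction of transcription on the x axis. Left, the percent of bases under knockout and WT H3K4me3 peaks. Right, NPM1 summits per kb in the 4 lists, which reach 1.78 in IL-4 and 1.74 in infarct just upstream of the start and stay near 0 in the other 2 lists.

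NPM1 was mapped independently of the rule, in WT cells. A summit of an NPM1 peak lay inside 1616 domains (93.2%, 95% Wilson interval 92.0% to 94.3%) in the infarct list and inside 1619 (93.4%, 92.2% to 94.5%) in the IL-4 list. It lay inside 131 (7.56%, 6.41% to 8.90%) in the sham list and inside 140 (8.08%, 6.89% to 9.46%) in the untreated list. Over all autosomal knockout peaks the shares were 45.1% for infarct, 45.5% for IL-4, 10.2% for sham and 5.45% for untreated. Background pileup was higher in infarct and IL-4 than in sham and untreated, so the gap between lists moves with depth, whose part was not tested.

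Longer regions hold more summits by length alone, so a fixed window was read as well. Within 250 bp of the knockout summit an NPM1 summit lay at 70.3% of domains in infarct, 69.9% in IL-4, 3.23% in sham and 4.56% in untreated. The shares over all knockout peaks were 42.1%, 42.4%, 10.2% and 5.22%. Knockout peaks of 1000 to under 2000 bp had 60.5% in infarct and 59.9% in IL-4, between the domains and the rest. Per kb, the domains held 0.566 infarct summits and 0.560 IL-4 summits, slightly fewer than the 0.605 and 0.599 of peaks of 1000 to under 2000 bp. In infarct and IL-4, NPM1 was therefore more frequent at the summits of domains than at those of narrower peaks, and not denser along them. In sham and untreated the share was 3.46% and 3.89% in peaks of 1000 to under 2000 bp, near that of the domains.

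**Figure D4:**
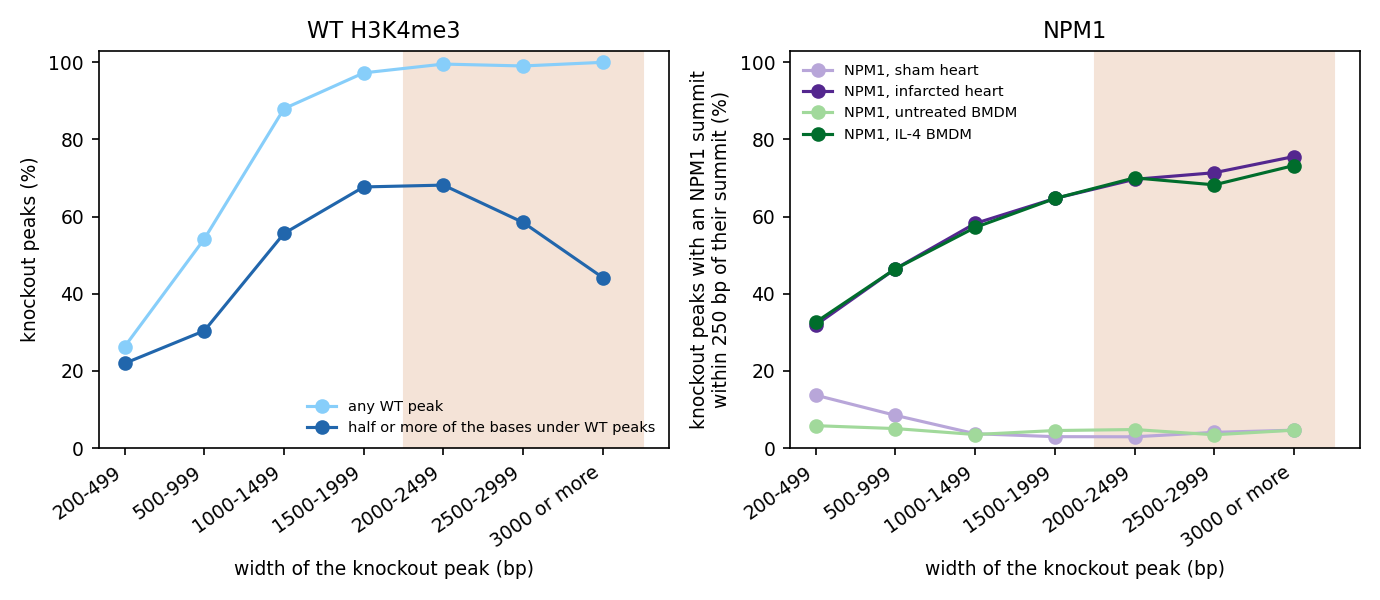
Knockout H3K4me3 peaks by width in bp on the x axis, with the domains shaded. Left, the percent with any WT peak and the percent with 50% or more of their bases under WT peaks, which drops from 68.2% to 44.2% across the domains. Right, the percent with an NPM1 summit within 250 bp of the knockout summit, which is higher in the domains than in narrower peaks in infarct and IL-4 and stays under 5% in the domains in sham and untreated.

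The best NPM1 peak of a domain was mostly stronger than the typical peak of its list in infarct and IL-4. The median −log10 q of the best peak in a domain was 9.87 in infarct and 11.3 in IL-4, against 2.14 and 2.62 over all autosomal peaks of those lists. In sham and untreated the medians were 1.53 and 1.40, against 2.01 and 1.93. A best peak with −log10 q of 5 or more occurred in 1209 domains in infarct (69.8%) and 1270 in IL-4 (73.3%), and in 11 each in sham and untreated (0.635%). Over all knockout peaks such a summit lay in 21.0% for infarct, 24.2% for IL-4, 4.09% for sham and 1.98% for untreated. Domains are longer than most knockout peaks, and the best of their NPM1 peaks was taken. Length and this choice both raise the domain values in these comparisons, and their part was not tested.

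Most domains held NPM1 in both cell systems. Infarct and IL-4 summits occurred together in 1569 domains (90.5%), little above the 87.1% that the product of their separate shares gives. Both occurred in 69.2% of knockout peaks of 1000 to under 2000 bp and in 35.8% of all knockout peaks. In the domains infarct was alone of the 2 in 47, IL-4 alone in 50 and neither was present in 67. In the 1569 the best summits of the 2 lists were a median of 80 bp apart and within 100 bp in 887. The best infarct summit lay a median of 134.5 bp from the knockout H3K4me3 summit and the best IL-4 summit 143 bp. By position, NPM1 summits were most frequent in the 200 bp before the start, and over the domains with a single start their density was 0.821 per kb upstream and 0.450 downstream in infarct, and 0.843 and 0.421 in IL-4. The downstream part was the longer, and the summits were split evenly, with 51.5% of infarct and 49.1% of IL-4 summits downstream. Knockout peaks of 1000 to under 2000 bp had similar densities, 0.850 and 0.477 in infarct and 0.858 and 0.459 in IL-4.

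NPM1 summits fell on the parts of a domain that also had WT peaks. Of 2296 infarct summits in the domains, 2085 (90.8%) lay under a WT peak, although WT peaks covered 56.3% of the bases. The density was 0.912 per kb on WT-covered and 0.119 per kb on uncovered bases, a ratio of 7.67, and the ratio was 7.14 in IL-4. In knockout peaks of 1000 to under 2000 bp the ratios were 5.75 and 5.57. The stretches with a called peak in the knockout list only were thus poor in NPM1 peaks of WT cells, in the domains and in narrower peaks alike. Whether those stretches lack H3K4me3 in WT cannot be told from the absence of a called peak.

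Domains with more WT coverage also held NPM1 more often. An infarct summit lay in 43 of 69 domains (62.3%) with under 25% WT coverage, in 481 of 534 (90.1%) with 25% to 50%, in 838 of 868 (96.5%) with 50% to 75% and in 254 of 262 (96.9%) above that. The IL-4 shares in the same order were 65.2%, 91.2%, 95.7% and 97.7%. The median −log10 q of the best infarct peak went from 5.16 to 12.0 over the 4 classes. The knockout fold moved the same way, with medians of 5.27, 5.75, 6.30 and 6.28, and its part in this order was not tested.

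Among domains at protein-coding gene ends the highest infarct NPM1 −log10 q was at Wee1, the gene of a kinase that delays mitotic entry, with 115 in infarct, 105 in IL-4 and summits 1 bp apart. Gm10222/Gm10925, with 483 and 637, and Rn18s-rs5, with 136 and 163, were above it. At Cpne9/Brpf1, where Brpf1 encodes a subunit of a histone acetyltransferase complex, the values were 99.8 and 131, the IL-4 value being the highest at a protein-coding gene end. At Rnf5/Agpat1, a ubiquitin ligase gene and a gene of phospholipid synthesis, they were 90.1 and 96.3, and at Dazap2 they were 67.8 and 102. The Wee1 domain was 89.1% covered in WT and the Rnf5/Agpat1 domain 58.9%. Each of these 4 also had a smaller peak in the untreated list, with −log10 q between 0.850 and 6.03. All 4 lists had a summit in 34 domains, among them Cdk6 and Daxx, a histone H3.3 chaperone gene. Some of these peaks were weak. The widest Cdk6 domain had a −log10 q of 1.41 in sham and 0.850 in untreated, and Daxx had 1.40 in untreated. The lists also hold peaks with q above 0.05. Such a peak was the best one in 37 of the 131 domains with a sham summit and 37 of the 140 with an untreated summit. In infarct this was so in 37 domains and in IL-4 in 17.

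There were 64 domains with no NPM1 summit in any list. Their median width was 2212.5 bp against 2262 bp in the 1569 with infarct and IL-4 summits, but their median WT coverage was 34.8% against 58.6% and their median knockout −log10 q 40.8 against 87.4. A protein-coding gene end lay at 52 of the 64 (81.2%), close to the 83.4% of the others. The widest were inside Abr, a regulator of small GTPases (2895 bp), at Igfbp4, an insulin-like growth factor binding protein gene (2653 bp), at a site with no gene, inside Apobec1, at Rims2 and at Zbp1, the sensor of Z-form nucleic acids (2615 bp). Mak16, a ribosome biogenesis gene, had no NPM1 summit either, although its domain (2083 bp) had the third highest knockout fold, 11.4. These lists cannot show more than that no peak was called at their depth.

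Domains were mostly at genes. A protein-coding gene end lay within 1 kb of 1444 domains (83.3%), against 67.7% of knockout peaks of 1000 to under 2000 bp and 27.8% of all knockout peaks. Another 137 held an annotated start inside the outermost extent of a gene, 44 were at a noncoding gene end, 90 were inside a protein-coding gene and 18 had no gene. The gene table gives no strand, so a gene end can be the 3′ end of a neighbour, as at Hnrnpul1/Axl, and 326 domains touched 2 genes and 18 touched more. In all, 1798 of 20665 autosomal protein-coding genes had a domain at an end (8.70%), or 13.7% of the 13113 genes with any knockout peak there.

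The highest knockout folds among the domains were at Isoc2b (11.8), Znrf3, a ubiquitin ligase gene that restrains Wnt receptors (11.4), Mak16 (11.4), Afg3l1, a mitochondrial protease gene (11.3), and Tomm70a, a mitochondrial import receptor gene (11.1). All 5 were near the width limit, between 2083 and 2327 bp. Fold and width thus described different domains, since the 12 widest had folds of 3.05 to 4.71 and the median domain had 6.13. Peaks of 1000 to under 2000 bp had a higher median fold, 8.10.

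Among transcription factors of the myeloid lineage, 8 of 22 genes had a domain. Cebpa led with 3532 bp, followed by Spi1, the gene of the master factor PU.1 (3058 bp, 60.7% covered in WT). Irf8 had 2278 bp with 38.0% covered, and Maf, Bhlhe40, Etv6 and Nfe2l2 had 2060 to 2224 bp. WT coverage in the 8 ran from 24.4% at Etv6 to 96.1% at Nfe2l2. An IL-4 NPM1 summit lay in all 8 domains and an infarct summit in 7, Maf being the exception, near the 93.4% and 93.2% of all domains.

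Of 25 macrophage surface and lysosome genes, 23 had a knockout peak at an end and 5 had a domain. These were Fcer1g, the gene of the common Fc receptor gamma chain (3237 bp, also at a neighbouring gene), Trem2 (2658 bp), Cd68/Eif4a1 (2369 bp), Fcgr3, an IgG receptor gene (2242 bp), and Itgam, which encodes CD11b (2237 bp). WT peaks covered 32.0%, 37.4%, 35.5%, 80.9% and 26.4% of them. All but Fcgr3 were thus below the lower quartile of WT coverage over all domains, 44.4%.

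Inflammatory genes had a domain in 7 of 26 cases, and each of the 7 held an infarct and an IL-4 NPM1 summit, which is near the 90.5% of all domains. They were Nfkbie (2954 bp, 61.2% covered), Nfkbia (2808 bp, 55.8%), Socs3 (2552 bp, 39.7%), Tnf/Lta (2455 bp, 47.0%), Rela, Rel and Icam1. Nfkbie and Nfkbia encode inhibitors of NF-kappaB, Rela and Rel its subunits, and Tnf and Icam1 are known targets of it. Of the genes of the IL-4 response and repair, 6 of 26 had one, with Il4ra, the IL-4 receptor chain (2848 bp, 58.4%), Stat6, its signal transducer (2668 bp, 79.5%), Vegfa, the angiogenic growth factor (2383 bp, 32.8%), Socs1, Fabp5 and the Hnrnpul1/Axl domain (3002 bp, 54.9%). AP-1 and immediate early genes had 6 of 20, with Mafk, Jun, Btg2, Fosb, Egr1 and Myc.

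Genes of chromatin and growth control had domains too. The list called the H3K4 list below holds 17 autosomal genes of H3K4 methyltransferases, members of their complexes and lysine demethylases, and 8 had a domain. They included the methyltransferase genes Kmt2a (2231 bp), Kmt2b/Zbtb32 (2060 bp), Kmt2c (2621 bp) and Setd1a (2146 bp) and the complex member Wdr5 (2081 bp). The others were the demethylase genes Ccdc77/Kdm5a (2411 bp), Kdm2a (2502 bp) and Kdm2b (2611 bp, 19.6% covered). Of 25 tumour suppressors and brakes of the cell cycle 11 had one, among them Foxo3, Zfp36l2, an mRNA decay factor gene (3001 bp, 44.4%), and Foxo1 (2955 bp, 76.6%). All 11 held an infarct and an IL-4 NPM1 summit, as 90.5% of all domains did. Of 31 genes of mTORC1 and TSC signalling 9 had one. Among them was Tomt/Lamtor1, where Lamtor1 encodes an anchor of the Ragulator complex on lysosomes (3469 bp, 43.7%). Others were Rheb, the gene of the activating GTPase of mTORC1 (2885 bp, 80.7%), Akt1 (2700 bp, 35.5%) and Ulk1, the autophagy kinase gene (2498 bp, 55.6%).

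Genes with steady expression were not without domains. Cytosolic ribosomal proteins had 8 of 32, housekeeping genes 4 of 25, glycolysis enzymes 3 of 17 (Pgam1, Pfkp and Gapdh) and genes of the TCA cycle and oxidative phosphorylation 2 of 19 (Ndufs1/Eef1b2 and Atp5b/Baz2a). The Atp5b/Baz2a domain lay beyond the end of Atp5b and outside it. The share in each of the 12 lists described so far was above the 8.70% of all protein-coding genes, but 3 of the 12, namely glycolysis (95% Wilson interval 6.19% to 41.0%), the TCA cycle and oxidative phosphorylation (2.94% to 31.4%) and housekeeping genes (6.40% to 34.7%), had intervals that include it. The lists were chosen with earlier results of these data known, so these intervals are not a test of any list. At a limit of 3000 bp 6 of the 12 lists, the H3K4 list among them, had no gene, against 0.397% of all genes. The 8.70% also counts genes with no knockout peak, while most genes of each of the 12 lists had one. Among genes with a knockout peak the share was 11.1% for the TCA cycle and oxidative phosphorylation, below the 13.7% of all marked genes. In the rest of the 12 lists it ran from 17.4% for housekeeping genes to 53.3% for the H3K4 list. Macrophage surface and lysosome genes had 21.7%. No interval was computed for these shares, so whether any list differs from 13.7% was not tested. The order of the lists turned with the limit, since at 1500 bp the shares were 70.6% for the H3K4 list, 71.0% for mTORC1 and TSC signalling and 76.0% for tumour suppressors. No gene of the lists for cardiomyocytes (0 of 20), fibroblasts (0 of 14), endothelium (0 of 13), neutrophils (0 of 12), T and NK cells (0 of 14), B cells (0 of 10) or silent tissues (0 of 18) had a domain, although 3 to 9 genes in each had a knockout peak at an end. With so few genes the intervals of all 7 lists include 8.70%.

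**Figure D5:**
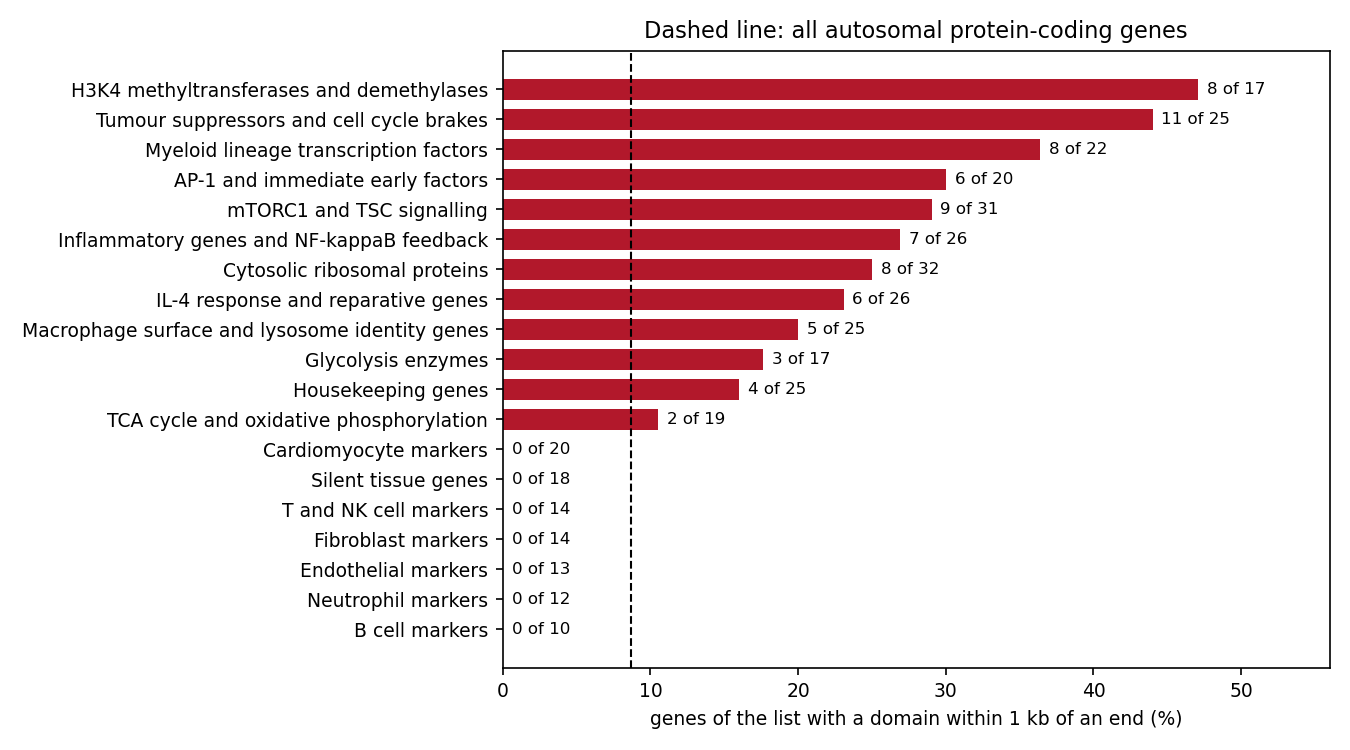
The percent of the genes of each list with a domain within 1 kb of a gene end on the x axis, with the counts beside the bars and all autosomal protein-coding genes (8.70%) as a dashed line. The list of H3K4 methyltransferases and demethylases and that of tumour suppressors reach 47.1% and 44.0%, and the 7 lists of other cell types and silent genes are at 0.

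The genes on which the study centres had H3K4me3 peaks within 1 kb of an end that were below the limit. Npm1 itself carried a knockout peak of 1802 bp, 59.4% covered in WT, which lies at its gene end and does not show whether the deleted part was lost. Kdm5b, the H3K4 demethylase gene, had 1623 bp (65.2%), Tsc1 1490 bp (83.0%), Tsc2 1620 bp (59.1%) and Mtor 1526 bp (42.3%). The Mtor peak lay beyond the end of Mtor and outside it, so it need not belong to that gene. Tsc1 and Tsc2 encode the complex that restrains the mTOR kinase. An infarct NPM1 summit lay in the Npm1 and Tsc1 peaks and in none of the other 3. Over all knockout peaks of 1000 to under 2000 bp, the width class of these peaks, the share was 76.7%. So few peaks do not show a pattern for these genes.

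The starts inside the domains were rich in CpG. The promoter table held a sequence for 16457 of the 20665 genes (79.6%), and 1791 starts of 1472 genes lay in a domain. Over the 300 bases from 250 before to 50 after each, the median start in a domain had 26 CpG and 65.7% G or C. Starts in knockout peaks of 1000 to under 2000 bp had 23 CpG and 62.3%, those in peaks under 1000 bp had 16 and 58.7%, and those without a knockout peak had 4 and 48.7%. The letters CGCG occurred in 82.0% of the starts in domains, 77.7% of those in knockout peaks of 1000 to under 2000 bp and 50.3% of all starts. In the same order GGGCGG occurred in 75.4%, 69.9% and 47.0%, and TATAAA in 5.58%, 5.25% and 12.7%, all read on both strands, so that a GC-rich word could overlap another. The domains were thus close to the narrower peaks in these letters. They are matches in one window and not sites.

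CpG-poor starts were a small group. Of the 1791 starts in domains 64 (3.57%) had 5 or fewer CpG, against 31.4% of all starts. They belonged to 56 genes. In starts in knockout peaks of 1000 to under 2000 bp the share was 4.10%, close to that of the domains. The 56 genes included the inflammasome genes Nlrp3 (3338 bp, 28.7% covered in WT) and Casp1, the antiviral genes Oas1a (2255 bp, 51.8%), Oas3 (2750 bp, 66.4%), Ifitm2 (2271 bp, 35.4%) and Ifitm3 (2428 bp, 73.4%), Trim30a (2305 bp, 29.0%) and Trim30d (2292 bp, 34.9%), and the lectin gene Lgals9 (2977 bp, 42.8%). They also included the macrophage genes Cd68, Trem2 and Clec4a1 (2148 bp, 22.2%), and Fermt3/Stip1, where Fermt3 encodes an integrin activator of blood cells (3026 bp, 70.2%). General genes such as Cul1, a ubiquitin ligase scaffold gene (2105 bp, 79.5%), and Myl6/Myl6b, myosin light chain genes (2872 bp, 37.3%), were among them as well.

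WT coverage and NPM1 both differed with CpG content. In the 39 domains whose starts all had 5 or fewer CpG the median WT coverage was 38.8%, and it was 53.0% in the 151 with 6 to 15, 56.5% in the 354 with 16 to 25 and 60.8% in the 742 with 26 or more. An infarct NPM1 summit lay in 29 of the 39 (74.4%), and in 94.7%, 92.7% and 96.2% of the other 3 classes. The IL-4 shares were 82.1%, 93.4%, 94.6% and 96.4%. Trim30a, Trim30d and Casp1 were among those with a summit in neither. The class with 5 or fewer CpG was lowest in narrower peaks as well. Starts with so few CpG in knockout peaks of 1000 to under 2000 bp had a median coverage of 40.8% and an infarct summit in 67.3%, against 65.6% and 82.8% with 26 or more.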

How the data were processed

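Each of the 6 libraries used here was deposited as 1 narrowPeak list of its own peaks. The build was mm10 and the tools included MACS2 2.2.7.1, Bowtie2, deepTools and bcl2fastq 2.17, per the submitters' processing notes. The sources used here give no settings, duplicate handling, control library or spike-in. The deposited score is the peak caller's integer score, the fold deposited by the authors is the enrichment ratio at the summit, and the −log10 p and −log10 q are deposited as the caller wrote them. They describe peaks within a list.

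Domains, covered bases, summits inside and gene ends within 1 kb were counted in Python 3.11.15 (pandas 2.3.3, numpy 2.4.6, scipy 1.17.1). Matplotlib 3.10.9 drew the figures. The interval code was tested on simulated peaks. Genes came from the RefSeq table of GRCm38.p6, the assembly mm10 names. It holds no strand or exons, so exons, introns and UTRs were not told apart, and starts and strands came from the promoter table. Motifs were searched in 300 bases. Depth was read from fold and p, solved within 0.001 for 98.2% to 100% of summits. Coordinates are 1-based.

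The members and gene lists were chosen with earlier results of these data known. Genes were named by rule: the 12 widest domains, 5 inside and 5 outside the limit, the 8 with lowest WT coverage, up to 4 widest per list, the 6 strongest NPM1 peaks in infarct and IL-4, the widest with all 4 lists or no gene, the 5 highest folds, and Npm1, Kdm5b, Tsc1, Tsc2 and Mtor. Some genes that the rule names are not reported here. Further list members, domains without NPM1, the next in WT coverage, the CpG classes and their genes were chosen after their values were seen. Of the listed genes 5 were not autosomal protein-coding genes in the table and were left out.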

Additional observations from a re-analysis of the deposited data

Results flagged for a closer look

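On chromosome X, outside the autosomal rule, the knockout list held 37 H3K4me3 peaks of 2000 bp or more and the WT list held 0. The sources used here do not give the sex of the mice. These peaks were not used in the report.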

How the results depend on the processing

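Counts of domains depended on the limit. There were 5572 at 1500 bp, 86 at 3000 bp, 3113 when knockout peaks were stitched over gaps of 500 bp or less and 1732 with −log10 q of 5 or more. The WT list in place of the knockout list gave 43. The share of domains covered over 50% or more in WT was 40.2% with WT peaks of −log10 q 5 or more, 48.1% with a WT fold of 3 or more, 75.8% with stitched WT peaks, 58.9% in the 2 kb around the knockout summit and 44.2% at 3000 bp. The reverse choice by WT width gave 95.3%, and so did the equal number of widest WT peaks.

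Shares of domains with NPM1 are given for infarct, IL-4, sham and untreated in that order. Peaks with −log10 q of 5 or more gave 69.8%, 73.3%, 0.635% and 0.635%, and peaks with a fold of 4 or more gave 62.1%, 61.5%, 1.85% and 1.85%. Within 250 bp of the knockout summit they were 70.3%, 69.9%, 3.23% and 4.56%. At equal list lengths infarct had 90.0% and IL-4 86.0%. At 3000 bp infarct and IL-4 had 98.8% each and sham 11.6%, and with stitched knockout peaks infarct had 90.0% and IL-4 90.3%. Infarct and IL-4 stayed far above sham and untreated in each of these settings.

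Genes at domains numbered 1612, 1934 and 1472 with windows of 0 bp and 2500 bp and with starts inside. Of the 381 distinct listed genes 19.7% had a domain, 41.2% at 1500 bp and 2.62% at 3000 bp. Among single lists, 21 of the values moved and 36 did not, and at 1500 bp 2 endothelial and 1 neutrophil gene passed the limit. The WT list in place of the knockout list, the equal number of WT peaks and the stitched knockout peaks for NPM1 were chosen after seeing the data. The cause of these shifts was not tested beyond the settings themselves. No paired analysis was possible because each group had 1 library. Intervals cover counting over domains, or over genes for the gene lists, and nothing else. Sham and untreated, with the lowest backgrounds, limit what their lists could detect.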

Other observations

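Genes that share a symbol stem differed in how often they had a domain, counted over the 240 stems with 8 or more genes carrying a knockout peak at an end. These stems were looked at after the values were seen, and each is a description. Histone lysine methyltransferases with the stem Kmt had a domain at 5 of 8 genes, the splicing factors Srsf at 6 of 11, and the interferon regulatory factors and their relatives under Irf at 6 of 12 (Irf1, Irf2, Irf2bp2, Irf5, Irf7 and Irf8). The deadenylase subunits Cnot followed with 5 of 10, the lysine acetyltransferases Kat with 4 of 8, the SET-domain genes Setd with 4 of 8 and the lysine demethylases Kdm with 6 of 14. Arid, Atxn and Septin each had 4 of 10. These were the 10 stems that reached 40%, against 13.7% of all marked genes, and 49 had none.

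At the other end, the cytochrome P450 stem Cyp had 0 of 27, the respiratory chain stem Cox 0 of 21, the collagen stem Col 0 of 19, the chemokine stems Ccl 0 of 14 and Cxcl 0 of 9, and the replication helicase stem Mcm 0 of 10. The chemokines had knockout peaks at these gene ends without reaching 2000 bp.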
